A study of Mus musculus with 6 samples.

Results

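Fibroblast growth factors (FGFs) are secreted proteins that bind receptor tyrosine kinases at the cell surface. This account follows 10 genes of the family in mouse embryonic stem cells in which Nanog was lower after drug treatment than after vehicle. The members were the rows of the count table named Fgf4, Fgf5, Fgf8, Fgf15 and Fgf17 (5 ligands), Fgfr1 to Fgfr4 (4 receptors) and Fgfrl1 (a receptor-like protein). All 10 were found among the 23999 genes of the table, and 8 of them were among the 14458 genes that passed the filter on low counts. Polyadenylated RNA was counted in 6 samples of murine embryonic stem cells, cultured cells that can give rise to every tissue of the body. Every sample, vehicle included, carried the same genotype by its label: a floxed element named -5 and an exogenous mNanogV5 transgene. The vehicle group (n = 3) received ethanol for 6 days. The 4OHT group (n = 3) received for 6 days a tamoxifen compound written 4OHT in the labels, the usual short form of 4-hydroxytamoxifen. The sources used here do not name the recombinase, the promoter of the transgene or the number of clones. No sample without the floxed element received 4OHT. Effects of the compound itself, of any loss of the element and of the lower Nanog level therefore cannot be told apart. No label says whether the 3 samples of a group came from separate cultures, so the p-values measure the spread between these samples, which may be technical.

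An FGF ligand, held by heparan sulfate chains, brings a pair of receptor molecules together, and the activated kinases signal through FRS2, GRB2 and RAS to the ERK kinases. In the blastocyst FGF4 comes from the epiblast, which reads it mainly through FGFR1, while the neighbouring primitive endoderm also uses FGFR2 and needs the signal to form. In embryonic stem cells FGF4 is the main ligand the cells make for themselves, and its ERK signal primes them to leave the naive state.

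The library totals ran from 20030423 to 52250671 counts in vehicle, and 4OHT replicates 1 and 3 held 55194644 and 31307423. The remaining one, 4OHT replicate 2, held 515388 counts, so 1 read there is worth 1.91 CPM (counts scaled to a common library size with TMM factors) against 0.0183 to 0.0498 CPM in the other libraries. Nanog, whose enhancer the series title names, stood at 631, 660 and 641 CPM in vehicle and at 177, 172 and 194 CPM in 4OHT replicates 1 to 3. Its reads can come from the tagged copy as well as from the endogenous gene. Of 10 stem cell markers all were tested, and their summed level was 6760 to 6920 CPM in vehicle and 6690 to 7070 CPM in 4OHT libraries, with 2 higher, 1 lower and 7 not passed.

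The sequences just upstream of 2 members are shown because these genes moved in opposite directions: Fgf4 fell and Fgfr2 rose. Each is the 250 bases before the RefSeq start on GRCm38.p6, written 5′ to 3′ on the strand of the gene, with CG dinucleotides in capitals. The Fgf4 window is chr7:144861136-144861385 on the plus strand and the Fgfr2 window is chr7:130266809-130267058 on the minus strand.
Fgf4: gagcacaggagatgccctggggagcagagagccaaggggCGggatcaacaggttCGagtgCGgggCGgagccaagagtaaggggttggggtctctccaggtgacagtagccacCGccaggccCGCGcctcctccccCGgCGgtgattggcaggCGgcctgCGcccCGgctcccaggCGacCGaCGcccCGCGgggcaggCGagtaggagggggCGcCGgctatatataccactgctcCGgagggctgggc
Fgfr2: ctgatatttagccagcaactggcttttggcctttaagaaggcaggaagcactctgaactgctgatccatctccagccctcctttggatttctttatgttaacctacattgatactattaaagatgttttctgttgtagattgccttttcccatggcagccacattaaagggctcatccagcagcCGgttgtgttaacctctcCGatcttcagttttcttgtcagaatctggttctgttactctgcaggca
The Fgf4 window held 21 CG dinucleotides and was 71.2% G or C, while the Fgfr2 window held 2 and was 44.0% G or C. Over 32851 such windows of the mouse genome the median was 6 CG dinucleotides, 16.3% had at least as many as Fgf4 and 29.0% had at most as many as Fgfr2. Searched on both strands, GGGCGG occurred 2 times in the Fgf4 window (in 32.7% of all windows at least once), CCAAT 1 time (33.8%) and TATATA at 2 overlapping positions (5.25%). TATAAA (12.4%) was in neither window, and the Fgfr2 window held none of these 4 motifs. Fgf4, Fgf5, Fgfr2, Fgfr3, Fgfr4 and Fgfrl1 had a window in the table, with a second start for Fgfr3. Among these members the windows of Fgf5, Fgfr3 (at both starts), Fgfr4 and Fgfrl1 held 24, 19 and 24, 15 and 30 CG dinucleotides, so the Fgfr2 window was the lowest of the 7. The Fgfr3 windows and part of the Fgfr4 window lie on annotated exon bases. These are descriptions of the letters alone, since methylation and factor binding were not measured here.

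Of the 8 tested members, 1 was higher in 4OHT (Fgfr2), 3 were lower (Fgf4, Fgf17 and Fgfr3) and 4 did not pass edgeR's test (Fgf15, Fgfr1, Fgfr4 and Fgfrl1). Across all tested genes 22.4% passed, 11.9% as higher and 10.5% as lower. These shares are the background for the counts of every gene list and marker set given here. With the replicate number as a blocking term the same 4 members passed, against 28.2% of all tested genes. The members' median log2 fold change was -0.04, against 0.00 for all tested genes, and the fold changes of the 4 members that passed ran from -1.10 to 0.95. The vehicle and 4OHT libraries did not overlap for 5 of the 8, against 31.3% of all tested genes. For Fgfr2, Fgfr3 and Fgfrl1 the place of 4OHT replicate 2 rests on 4, 0 and 2 reads. Fgf5 and Fgf8 did not reach the count minimum and have no test in this fit. Without the shallow 4OHT replicate 2 the same fit called Fgf4, Fgf17 and Fgfr3 lower and Fgfr2 higher, with edgeR adjusted p of 0.00361, 2.93e-05, 0.00919 and 0.000548.

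**Figure D1:**
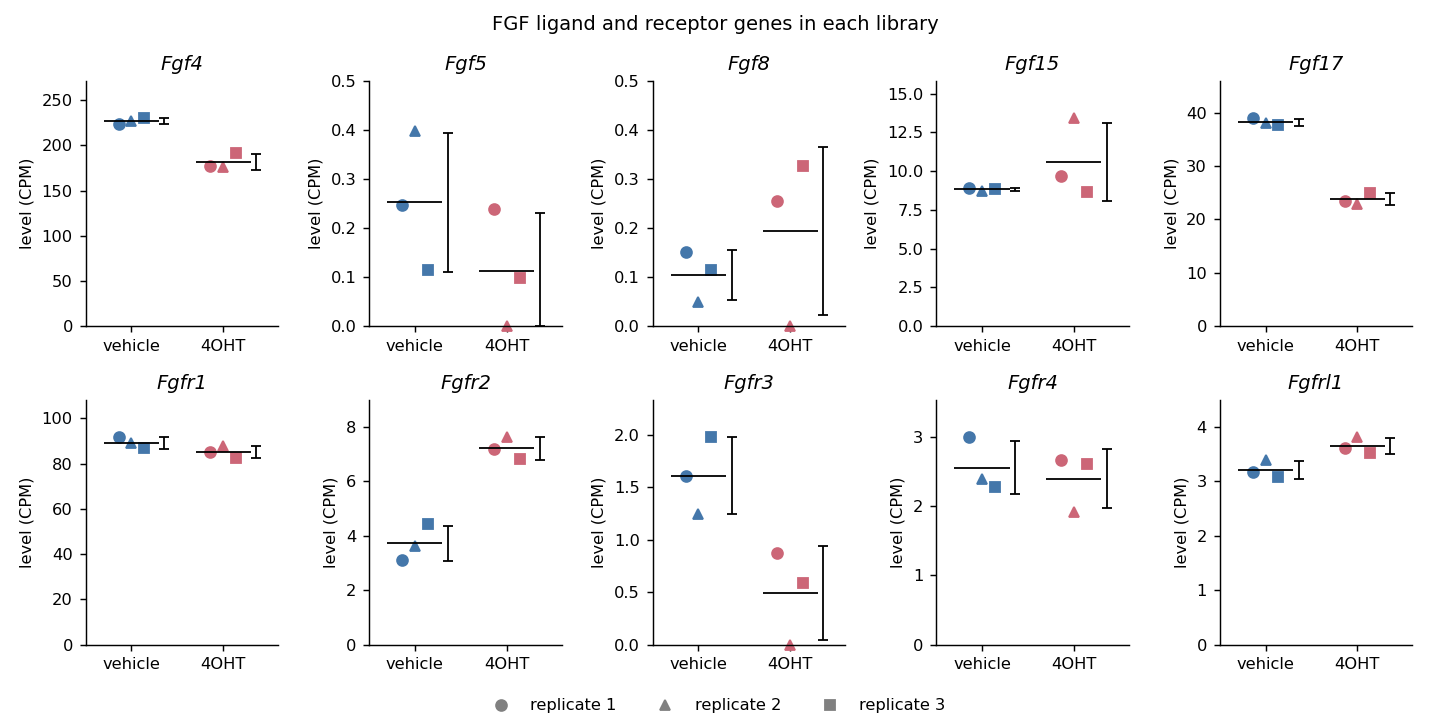
Level in CPM (vertical axes, each from 0) of the 10 genes in the 3 vehicle and 3 4OHT libraries; marker shapes give the replicate number, horizontal lines the mean and side bars the SD, stopped at 0. All 4OHT points lie below all vehicle points for Fgf4, Fgf17 and Fgfr3 and above them for Fgfr2 and Fgfrl1. The points of 4OHT replicate 2 rest on 4 reads for Fgfr2, 0 for Fgfr3 and 2 for Fgfrl1.

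Levels can be set beside each other only per length, so CPM was divided by the kb of exon of each gene. In vehicle, Fgf4 was the most abundant member at 71.0 ± 0.946 CPM per kb (SD, n = 3), higher than 94.8% of the tested genes that have a length. Fgf17 followed with 22.6 ± 0.398, Fgfr1 with 9.03 ± 0.255 and Fgf15 with 2.88 ± 0.0311 CPM per kb. Fgfrl1 stood at 1.16 ± 0.0557, Fgfr4 at 0.723 ± 0.11, Fgfr2 at 0.36 ± 0.0633 and Fgfr3 at 0.225 ± 0.0513 CPM per kb. The 3 libraries of each of these genes lay above those of the next, while the last pair, Fgf5 (0.101 ± 0.0569) and Fgf8 (0.0778 ± 0.038), overlapped. In 4OHT, on this exon length, the first 5 places were the same genes in the same order, from 56.8 ± 2.92 CPM per kb for Fgf4 to 1.31 ± 0.0538 for Fgfrl1. Fgfr2 (0.698 ± 0.0395) and Fgfr4 (0.677 ± 0.119 CPM per kb) overlapped there, whereas in vehicle all 3 Fgfr4 libraries stood above all 3 Fgfr2 libraries. Part of this order turns on the length used. With the longest transcript, which is shorter than the summed exons for most members, Fgfr2 (0.841 ± 0.148) and Fgfr4 (0.77 ± 0.117 CPM per kb) overlapped in vehicle, and in 4OHT Fgfr2 (1.63 ± 0.0921) stood above Fgfr4 (0.721 ± 0.127). Fgfr1 (16.9 ± 0.519) then passed Fgf17 (14.1 ± 0.655) in 4OHT, and Fgfr2 overlapped Fgfrl1 (1.57 ± 0.0642 CPM per kb). With both lengths Fgf4 was first, Fgf17 and Fgfr1 followed in either order, and Fgf15 came next, in both groups.

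Fgf4, the ligand of naive stem cells, fell after 4OHT. It stood at 224, 227 and 230 CPM in vehicle and at 177, 176 and 192 CPM in 4OHT replicates 1 to 3. The groups did not overlap, and even the highest 4OHT library lay under the lowest vehicle library. The level fell by 19.0% (95% interval -25.7% to -11.8%; log2 fold change -0.30, SE 0.06, edgeR's adjusted p = 0.000722). Fgf4 has the largest count of the members, 38097 reads over the 6 libraries, and 92 of them came from the shallow one.

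Fgf17, a ligand of the FGF8 subfamily with roles in the midbrain and in the early mesoderm, fell by a larger fraction than Fgf4, although the difference between them was not tested. Its libraries held 38.9, 38.1 and 37.6 CPM in vehicle and 23.5, 22.9 and 25.0 CPM in 4OHT. Within each group the 3 values were close, and the groups were far apart. The level fell by 36.9% (95% interval -43.0% to -30.1%; log2 fold change -0.66, SE 0.07, edgeR's adjusted p = 6.34e-07). Among the tested genes with a length, Fgf17 went from a mean percentile of 82.3 to 73.5 per kb.

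Fgf15, the mouse counterpart of human FGF19 and an endocrine ligand in the gut and liver, did not pass. It stood at 8.90, 8.71 and 8.83 CPM in vehicle and at 9.70, 13.4 and 8.65 CPM in 4OHT, where the high value of replicate 2 rests on 7 reads. The groups overlapped, and the log2 fold change was 0.08 (95% interval -0.14 to 0.29, edgeR's adjusted p = 0.662), which leaves room for changes between 0.907-fold and 1.22-fold. In GENCODE vM21 an opposite-strand gene, Gm26793, covers 24.9% of the exon bases of Fgf15, and the sources used here do not say whether the counting used strand.

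Fgf8, a ligand of the gastrulating embryo, and Fgf5, a textbook marker of the post-implantation epiblast, were near the limit of detection. Fgf8 had 8, 1 and 3 reads in vehicle and 14, 0 and 10 in 4OHT. Summed over libraries that is 0.121 CPM (95% Poisson interval 0.0625 to 0.211) in vehicle and 0.279 CPM (0.179 to 0.416) in 4OHT, intervals that cover counting error only. With no filter on low counts the log2 fold change of Fgf8 was 1.20 (SE 0.52, unadjusted p = 0.0242, edgeR's adjusted p = 0.106), and DESeq2 without 4OHT replicate 2 gave an adjusted p of 0.381. Fgf5 had 13, 8 and 3 reads in vehicle and 13, 0 and 3 in 4OHT, with a log2 fold change of -0.39 in the same unfiltered fit (edgeR's adjusted p = 0.649). No difference in Fgf5 or Fgf8 was called in these fits, and reads this few leave it unresolved for both genes. The epiblast genes of the formative and primed list gave 3 higher, 1 lower and 2 not passed of 6 tested, with a summed level of 484 to 491 CPM in vehicle and 691 to 712 CPM in 4OHT. Dnmt3a (207 to 293 CPM), Dnmt3b (208 to 280 CPM) and Otx2 (51.5 to 110 CPM) rose and make up nearly all of that sum. Lef1 fell (log2 change -1.01), Pou3f1 and Sox3 did not pass (-0.12 and -0.09), and Wnt8a was too low to test.

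Among the receptors, Fgfr2 rose 1.93-fold. FGFR2 is the receptor through which, with FGFR1, primitive endoderm and trophectoderm read FGF4. Its libraries held 3.12, 3.63 and 4.42 CPM in vehicle and 7.18, 7.64 and 6.82 CPM in 4OHT. Every 4OHT library lay above every vehicle library, although the 7.64 CPM of replicate 2 rests on 4 reads. On the log2 scale the change was 0.95 (SE 0.14, 95% interval of the fold 1.58 to 2.36, edgeR's adjusted p = 3.05e-05), and DESeq2 on all 6 libraries gave an adjusted p of 0.0379. In GENCODE vM21 a gene on the same strand, Ctbp2, shares 3.04% of the exon bases of Fgfr2. Ctbp2 itself rose from 378 ± 1.05 to 435 ± 23.8 CPM, a log2 fold change of 0.22, smaller than that of Fgfr2. The count table does not show how shared bases were assigned.

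Markers of the primitive and visceral endoderm moved with Fgfr2. Of the 14 markers 12 were tested and all 12 rose, with a summed level of 256 to 270 CPM in vehicle and 395 to 443 CPM in 4OHT libraries. The basement membrane genes Lamb1, Lama1 and Col4a1 make up most of that sum, at 137, 136 and 84.5 CPM in 4OHT. Foxa2, with 10, 3 and 6 reads in vehicle, passed the filter on low counts only through 4OHT, where replicate 2 had 2 reads. Ttr, a late marker of the visceral endoderm, had no read in any library, and Afp had none in vehicle. In bulk RNA, more cells of a type and more RNA per cell cannot be told apart, and the part of endoderm-like cells in the rise of Fgfr2 was not tested. Trophoblast, the other lineage that uses FGFR2, had 8 markers, of which 3 rose and 3 fell. Their summed level was 96.2 to 100 CPM in vehicle and 99.9 to 104 CPM in 4OHT. The factors Tfap2c, Hand1 and Gata3 rose (log2 changes of 0.21, 0.87 and 0.89) and the keratins Krt8, Krt18 and Krt7 fell (-0.86, -0.54 and -0.88), while Cdx2 and Elf5 were too low to test, at 0.107 and 0.0109 CPM in 4OHT. Tfap2c makes up most of the sum (85.8 CPM in 4OHT), and Hand1 and Gata3 stood below 1 CPM on average in both groups.

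Fgfr3, the receptor best known from growth plate cartilage, fell from a low level. Its libraries held 1.61, 1.24 and 1.98 CPM in vehicle, resting on 85, 25 and 52 reads. In 4OHT replicates 1 and 3 it stood at 0.877 and 0.588 CPM (48 and 18 reads), and replicate 2 had no read, where 3 reads would be 5.73 CPM. All 4OHT values lay below all vehicle values, but the zero of the shallow library does not separate the groups. On the log2 scale the change was -1.10 (SE 0.25, 95% interval -1.62 to -0.58, edgeR's adjusted p = 0.0028). DESeq2 on all 6 libraries did not pass it (adjusted p = 0.476, with 6.87% of genes called), and DESeq2 without 4OHT replicate 2 did (adjusted p = 0.0202, with 15.0% of genes called). G630022F23Rik, on the opposite strand, covers 13.9% of the exon bases of Fgfr3 in GENCODE vM21.

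Fgfr1, the main FGF receptor of stem cells and epiblast, did not pass. It stood at 91.8, 89.1 and 86.7 CPM in vehicle and at 85.0, 87.8 and 82.6 CPM in 4OHT, and the groups overlapped. With 16151 reads in all, the interval of the fold was narrow, 0.864 to 1.03 (log2 change -0.09, SE 0.06, edgeR's adjusted p = 0.34). Fgfr4, a receptor of endodermal tissues such as liver, stood at 3.00, 2.39 and 2.28 CPM in vehicle and at 2.67, 1.91 and 2.61 CPM in 4OHT. Its log2 fold change was -0.0013, with an interval of the fold from 0.791 to 1.26 (edgeR's adjusted p = 0.998).

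Fgfrl1 encodes a receptor-like protein that binds FGFs and heparin but lacks the intracellular tyrosine kinase. Its libraries held 3.17, 3.39 and 3.08 CPM in vehicle and 3.62, 3.82 and 3.53 CPM in 4OHT. The groups did not overlap, yet the difference did not pass the test (log2 change 0.16, SE 0.14, interval of the fold 0.914 to 1.37, edgeR's adjusted p = 0.453).

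**Figure D2:**
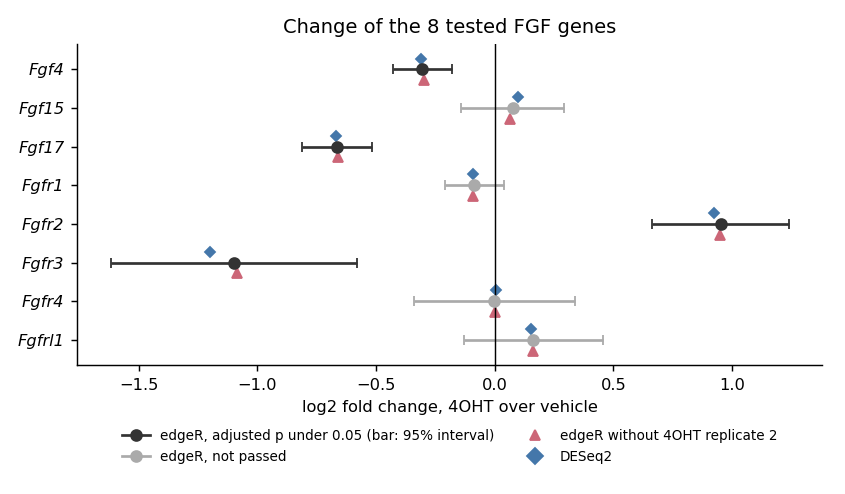
Log2 fold change of 4OHT over vehicle (horizontal axis) for the 8 tested genes, with 95% intervals from edgeR in black where the adjusted p passed 0.05 and grey where it did not; triangles leave out 4OHT replicate 2 and diamonds are DESeq2 on all libraries. Fgfr2 lies to the right of 0 and Fgf4, Fgf17 and Fgfr3 to the left in all of these fits.

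Fgfr1 made up most of the receptor message in every library, and the Fgfr2 part was larger in 4OHT. Per kb of exon, Fgfr1 made up 87.1%, 88.3% and 86.7% of the summed level of Fgfr1 to Fgfr4 in vehicle and 84.6%, 87.4% and 85.0% in 4OHT, and the groups overlapped. Fgfr2 made up 2.83%, 3.44% and 4.22% in vehicle and 6.83%, 7.27% and 6.71% in 4OHT, with no overlap. The ratio of Fgfr1 to Fgfr2 was 25.6 ± 5.12 in vehicle and 12.4 ± 0.317 in 4OHT (SD, n = 3). Fgfr4 held 6.97 ± 0.857% in vehicle and 6.73 ± 1.24% in 4OHT (SD, n = 3), and Fgfr3 held 2.18 ± 0.518% and 0.679 ± 0.617%. That 4OHT mean of Fgfr3 is lowered by the shallow replicate 2, which had no read of it, beside 1.2% and 0.834% in replicates 1 and 3. These shares describe messages per kb, they were not tested, and they depend on which exon length is used.

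**Figure D3:**
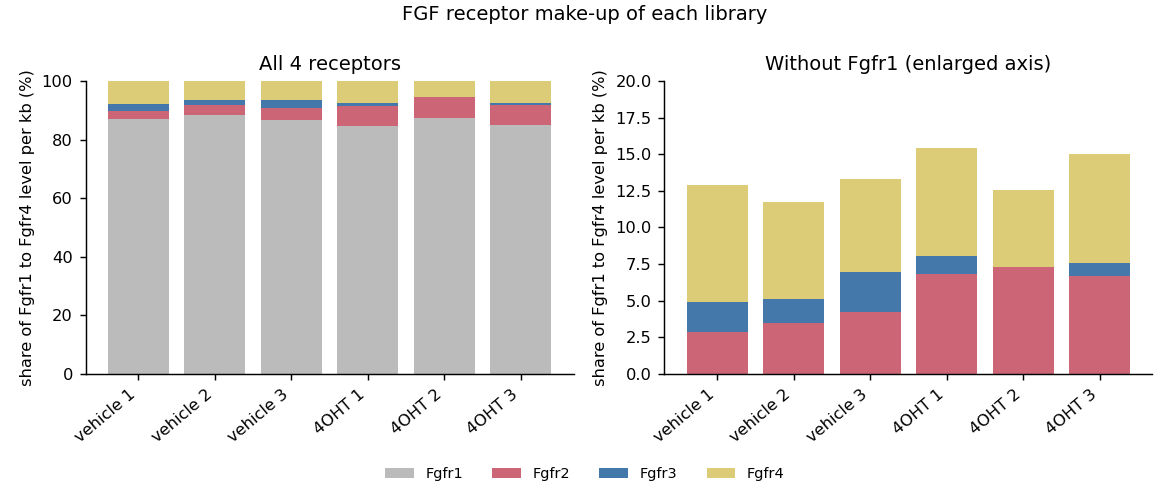
Share of each receptor gene in the summed level per kb of Fgfr1 to Fgfr4 (vertical axes, percent) in the 6 libraries, with all receptors on the left and the 3 minor ones enlarged on the right. Fgfr1 makes up 84.6% to 88.3% of every library, and the Fgfr2 part is 6.71% to 7.27% in 4OHT against 2.83% to 4.22% in vehicle. The 7.27% of 4OHT replicate 2 rests on 4 reads of Fgfr2, and that library had no read of Fgfr3.

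The shallow library bears on some members more than on others. At the level of 4OHT replicates 1 and 3 it should hold 95.6 reads of Fgf4 and held 92 (95% Poisson interval 74.2 to 113), while the vehicle level would give 118. For Fgf17 it held 12 reads (6.2 to 21.0) against 12.6 expected at the 4OHT and 20.1 at the vehicle level. For Fgfr2 it held 4 reads (1.09 to 10.2) against 3.69 and 1.87. The 0 reads of Fgfr3 allow up to 3.69, so they do not separate the 0.405 expected at the 4OHT from the 0.855 at the vehicle level. Of the 4 members that passed, then, only for Fgf4 did this library by itself exclude the vehicle level from its counting interval.

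**Figure D4:**
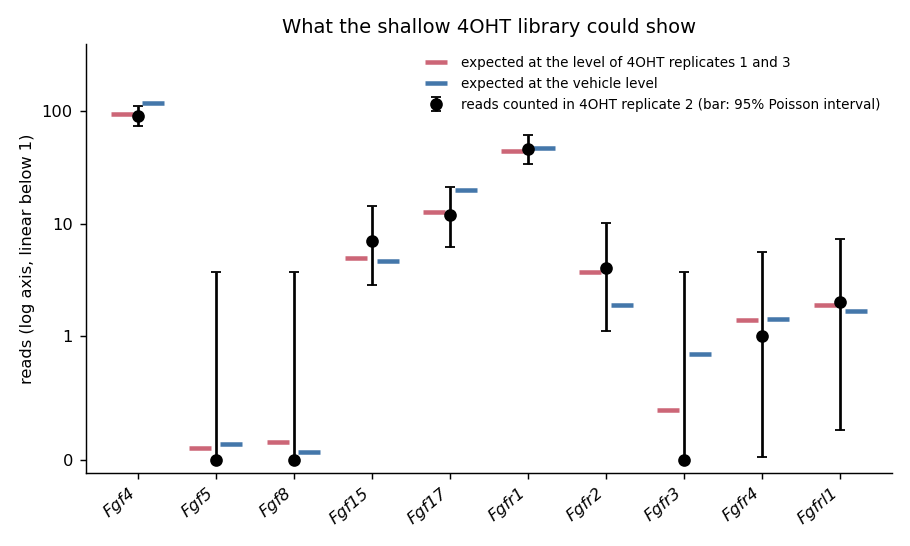
Reads of the 10 genes counted in 4OHT replicate 2 (points with 95% Poisson intervals; log axis, linear below 1), beside the number expected at the level of 4OHT replicates 1 and 3 and at the vehicle level. Only the interval of Fgf4, 74.2 to 113 reads, leaves out the 118 expected at the vehicle level.

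Several members share a chromosome: Fgf4, Fgf15 and Fgfr2 lie on chromosome 7 and Fgf5, Fgfr3 and Fgfrl1 on chromosome 5, while the other 4 lie on chromosomes 8, 13, 14 and 19. In the RefSeq gene order of GRCm38, Fgf3, Fgf4 and Fgf15 are direct neighbours. Fgf4 fell and the genes on both sides did not pass: Fgf3, an FGF ligand of the inner ear and tail bud, had a log2 fold change of 0.10 (SE 0.20, edgeR's adjusted p = 0.769), and Fgf15 is given above. Farther out on the side of Fgf15, Oraov1 did not pass (-0.19, edgeR's adjusted p = 0.216) and Ccnd1, the cyclin D1 gene, fell from 243 ± 2.82 to 194 ± 2.87 CPM (log2 change -0.32, SE 0.06, edgeR's adjusted p = 0.000308). On the side of Fgf3, the chloride channel gene Ano1 fell from 1.5 ± 0.236 to 0.396 ± 0.369 CPM (log2 change -1.32, edgeR's adjusted p = 0.000647), while Fadd, Ppfia1 and Cttn did not pass (0.01, 0.00 and 0.14). The 4OHT mean of Ano1 is lowered by replicate 2, which held no read of it and where 1 read is worth 1.91 CPM.

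The other FGF ligands were rare in these cells. Of these 17 further genes 11 did not reach the count minimum. Of the 6 tested 3 were higher, 1 was lower (Fgf11) and 2 did not pass. Over all tested genes 11.9% were called higher and 10.5% lower. Fgf18 rose from 5.55 ± 0.407 to 7.54 ± 0.169 CPM (a log2 change of 0.42, edgeR's adjusted p = 0.0098). All 4OHT libraries lay above all vehicle libraries, although the value of 4OHT replicate 2 rests on 4 reads. Fgf10, a ligand of limb and lung buds, rose from 3.4 ± 0.0893 to 5.64 ± 1.79 CPM (0.44, edgeR's adjusted p = 0.0302). That 4OHT mean holds 7.64 CPM from replicate 2, which rests on 4 reads, beside 4.18 and 5.09 CPM in replicates 1 and 3. Fgf1, a ligand without a classical signal peptide, stood at 2.17, 1.94 and 1.94 CPM in vehicle and 3.40, 0 and 2.48 CPM in 4OHT, with a fitted log2 fold change of 0.54 (edgeR's adjusted p = 0.0415) although the plain 4OHT mean is not higher. Fgf11, an intracellular FGF homologous factor, stood at 1.55, 0.846 and 1.41 CPM in vehicle and 0.895, 1.91 and 0.588 CPM in 4OHT (-0.77, edgeR's adjusted p = 0.0414).
DESeq2 called 0 of the other FGF genes, both on all libraries and without 4OHT replicate 2. Those fits called 6.87% and 15.0% of the genes they tested. The number called higher was 1, 0 and 1 without vehicle replicates 1, 2 and 3. The call of Fgf18 was lost without vehicle replicate 2 (edgeR's adjusted p = 0.066). That of Fgf10 was lost without vehicle replicate 1, 2 or 3 and without 4OHT replicate 3 (0.107, 0.0868, 0.0589 and 0.148), and that of Fgf1 without vehicle replicate 1, 2 or 3 and without 4OHT replicate 1 (0.0739, 0.107, 0.107 and 0.503). The call of Fgf11 was lost without vehicle replicate 1 or 3 and without 4OHT replicate 2 or 3 (edgeR's adjusted p = 0.25, 0.0914, 0.0647 and 0.125).

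Co-receptors and heparan sulfate genes, which set how FGFs reach their receptors, included the largest change around the members. Of 18 genes 17 were tested, 5 rose, 3 fell and 9 did not pass, with a median log2 fold change of 0.06. Over all tested genes 11.9% were called higher and 10.5% lower. Klb, which encodes beta-klotho, the co-receptor that FGF15 and FGF21 need, rose 7.80-fold, from 0.302, 0.299 and 0.267 CPM in vehicle to 2.30, 1.91 and 2.32 CPM in 4OHT. The vehicle values rest on 16, 6 and 7 reads. Klb passed the filter on low counts only through its 4OHT libraries, so it was tested because it is high there. The groups were far apart, with 1 read behind the value of 4OHT replicate 2 (log2 change 2.96, SE 0.24, edgeR's adjusted p = 1.59e-08, and 3.7e-06 without that library). Klb moved with the endoderm markers given above, and their part in its rise was not tested. Gpc3, a glypican that carries heparan sulfate chains, fell from 56.1 ± 1.52 to 27.4 ± 3.93 CPM (-0.92, edgeR's adjusted p = 4.01e-09). Sdc4, a syndecan, rose from 127 ± 3.19 to 192 ± 6.13 CPM (0.59) and Hs6st1, a heparan sulfate 6-O-sulfotransferase, from 127 ± 5.86 to 186 ± 11.5 CPM (0.57), with edgeR adjusted p of 2.11e-07 and 7.14e-07. The number of rises was 3 without vehicle replicate 2, vehicle replicate 3 or 4OHT replicate 1. DESeq2, which called 6.87% of the genes it tested, also gave 3.

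Genes of the chain from receptor to ERK were called about as often as tested genes in general. All 18 were tested, 2 rose, 2 fell and 14 did not pass, beside 22.4% of all tested genes called. A fit that blocked on replicate number called 3 higher and 4 lower, beside 28.2% of all tested genes called. Frs3, an adaptor related to FRS2, fell from 9.11 ± 0.333 to 4.86 ± 1.01 CPM (log2 change -0.79, edgeR's adjusted p = 3.52e-05), and the adaptor gene Shc1 fell from 93 ± 1.47 to 74.1 ± 2.27 CPM (-0.35, edgeR's adjusted p = 0.000218). Sos2, a RAS exchange factor, rose with a log2 fold change of 0.60 (edgeR's adjusted p = 0.00288), although its 4OHT replicate 2, with 2 reads, stood at 3.82 CPM, below all vehicle libraries. Map2k2, which encodes the ERK kinase MEK2, rose from 87.9 ± 3.22 to 109 ± 12.5 CPM (0.24, edgeR's adjusted p = 0.0156), a call that was lost without vehicle replicate 2 or 4OHT replicate 3 (edgeR's adjusted p = 0.0992 and 0.105). The number of rises was 1 without either of these 2 libraries. It was 0 with DESeq2 on all libraries, which called 6.87% of the genes it tested.

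Feedback and target genes of ERK, which are switched on by the signal and often restrain it, were called in 10 of 17 cases. Of the 17 tested, 8 rose, 2 fell and 7 did not pass, with a median log2 fold change of 0.20. Over all tested genes 22.4% were called, 11.9% as higher and 10.5% as lower. Dusp4, an ERK phosphatase, had 10.7, 10.7 and 9.40 CPM in vehicle and 14.3, 9.55 and 19.2 CPM in 4OHT (log2 change 0.67, edgeR's adjusted p = 0.000257), where the middle value rests on 5 reads and overlaps vehicle. Etv1, an ETS factor, rose from 23.4 ± 0.582 to 32.4 ± 3.4 CPM (0.39, edgeR's adjusted p = 0.000492) and Myc from 52.1 ± 1.66 to 63.5 ± 2.62 CPM (0.30, edgeR's adjusted p = 0.00125). Il17rd, also called Sef, an antagonist of FGF receptors, fell from 54 ± 2.92 to 39.5 ± 4.83 CPM (-0.37, edgeR's adjusted p = 0.000644). The number of rises was 4 without vehicle replicate 2 or 3. DESeq2 on all libraries did not pass Dusp4, Etv1 or Myc (adjusted p = 0.0773, 0.0683 and 0.061). It called 0 rises in the list on all libraries, and there were 6 with DESeq2 without 4OHT replicate 2. These 2 fits called 6.87% and 15.0% of the genes they tested.

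**Figure D5:**
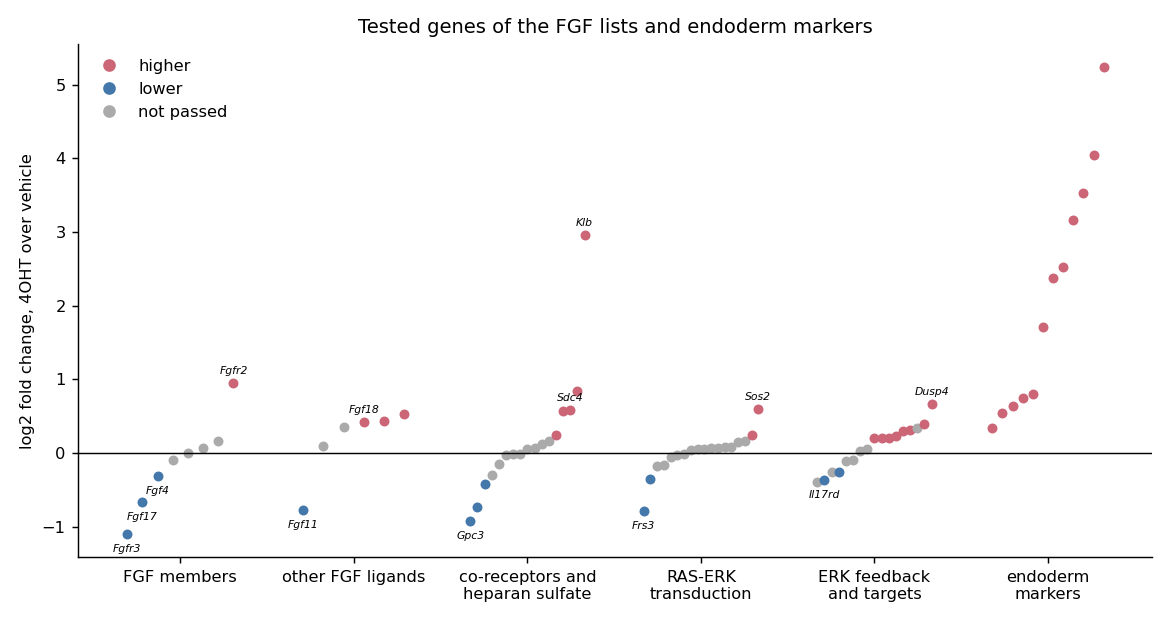
Log2 fold change of 4OHT over vehicle (vertical axis) for every tested gene of the FGF members, 4 related lists and the endoderm markers, coloured by edgeR call (adjusted p under 0.05). Klb at 2.96 stands above the other FGF pathway genes, and all 12 tested endoderm markers lie above 0.

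Markers of other cell types were measured as well. Of 8 primitive streak and mesoderm markers 5 were tested, 1 rose, 1 fell and 3 did not pass, and their summed level was 12.6 to 12.9 CPM in vehicle and 13.2, 22.9 and 11.9 CPM in 4OHT replicates 1 to 3. The value of replicate 2 rests on 12 reads, and the other 4OHT libraries are close to the vehicle range. Of 10 fibroblast markers 5 were tested, 1 rose, 1 fell and 3 did not pass. Their sum, 1310 to 1400 CPM in vehicle and 2190 to 2250 CPM in 4OHT, is nearly all Fn1, a matrix gene that endoderm also makes, at 2200 CPM in 4OHT. Thy1 fell from 15.8 ± 0.52 to 6.67 ± 0.874 CPM (-1.36), and Pdgfrb (7.11 ± 0.517 and 7.3 ± 1.96 CPM), Col1a1 (1.66 and 1.85 CPM) and Col1a2 (0.314 and 0.364 CPM) did not pass. Col3a1, Dcn, Lum, Postn and S100a4 were too low to test, and Postn had no read in any library.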

How the data were processed

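The authors deposited 1 table of raw read counts, whole numbers, with 23999 gene symbols and 6 samples. Per the submitters' processing notes, STAR, DESeq and the mm9 build were used; the counter, annotation, strand setting and versions were not given in the sources used here. Library totals differ as raw counts do, from 515388 to 55194644. Groups and replicate numbers came from the sample titles.

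Counts were tested in edgeR 4.0.16 (R 4.3.3): filterByExpr with minimum count 10, TMM factors (0.979 to 1.02), a quasi-likelihood fit with treatment as its term and Benjamini-Hochberg adjustment over the 14458 genes kept, at 0.05. CPM are TMM-scaled, and means ± SD are over 3 libraries. Fold change intervals are at 95%. The alternatives were DESeq2 1.42.0, limma-voom (limma 3.58.1) with quantile normalization, other scaling factors and filters, a replicate block and leaving out each library. DESeq2 without 4OHT replicate 2 was added after seeing the data. The procedure was tested on simulated data, where the size of known changes was recovered, small ones were called less often than large ones, and the share of false calls was above the nominal level, so calls close to the threshold are less certain than their adjusted p.

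Exon lengths, overlaps and copies came from GENCODE vM21 (GRCm38, not mm9), which gave a length for 95.2% of tested genes. With blastn 2.17.0 no member matched another gene over 50% of its transcript at 90% identity. Promoter windows came from RefSeq. Same-numbered samples were checked for pairing: over 3632 genes departures from the mean of each group had correlations of 0.57, 0.147 and 0.388, all above 0.1, the level set for treating numbers as pairs. The best match of vehicle replicate 2 was 4OHT replicate 3 (0.448). The best match of 4OHT replicate 2 was vehicle replicate 2 (0.147), and the low depth of that library limits any correlation with it. These values do not settle whether the numbers pair samples, and no label says so. The main fit did not use the numbers, and the fit with a replicate block is given beside it. No 2 libraries agreed within sampling noise. The members and lists were chosen with earlier results of these data known. Besides the members and Nanog, the 4 genes with the smallest adjusted p of each of the 4 related lists are named; the neighbours of Fgf4, genes sharing exon bases with members and single markers were named after their values were seen.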

Additional observations from a re-analysis of the deposited data

How the results depend on the processing

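Fgf4, Fgf17 and Fgfr2 kept their direction and their call under all 15 alternatives. Fgfr3 kept its direction in the 14 that could test it and lost its call with DESeq2 on all libraries (-1.20, adjusted p = 0.476); a mean count of at least 50 left it out. The replicate block changed no call of a member. Of the 4 members that did not pass, Fgfr1 (-0.11 to -0.07) and Fgfrl1 (0.13 to 0.19) kept their sign under every alternative, and Fgf15 and Fgfr4 did not: Fgf15 was -0.0068 (log2) without 4OHT replicate 1 and up to 0.146 with another library left out. Fgfr4 was 0.0061 with DESeq2, 0.019 with DESeq2 without 4OHT replicate 2, and between -0.0798 and 0.165 with 1 library left out. Leaving out 1 library gave 1 rise and 3 falls among members each time.

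Over all tested genes, DESeq2 called 551 higher and 388 lower and limma-voom with quantile normalization 1120 and 968, against 1719 and 1514; leaving out 1 library gave 1218 to 1950 and 1150 to 2019. For the other FGF genes DESeq2 called 0 and 0, both on all libraries and without 4OHT replicate 2. There limma-voom called 1 and 0, and the mean count of 50 gave 0 lower. Leaving out 1 library gave 0 to 3 higher and 0 to 1 lower. For co-receptors and heparan sulfate, DESeq2, limma-voom and the mean count of 50 each gave 3 higher (3 to 5 with 1 library left out, and 3 lower each time). For the transduction list DESeq2 and limma-voom gave 0 higher, and library totals alone and the replicate block gave 4 lower (1 to 2 higher and 2 to 3 lower with 1 library left out). For ERK feedback and targets DESeq2 gave 0 higher (4 to 9 higher and 2 lower with 1 library left out). With the length of the longest transcript, Fgfr1 made up 89.9% of the receptors in vehicle and 87.3% in 4OHT, and Fgfr2 4.28% and 8.41%. These choices change the number of genes or samples tested or the model; the cause of each shift was not tested. In 4OHT replicate 2, 3 reads are 5.73 CPM, above every vehicle level of Fgf5, Fgf8, Fgfr2, Fgfr3, Fgfr4 and Fgfrl1, so this library adds little on them.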
